A study of Mus musculus with 19 samples.

Results

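The miR-26 family was followed through the small RNAs, 19 to 24 nt long, that came down with Ago2 from mouse brain. Its members were all miRNA names in the deposited table that begin with miR-26a or miR-26b, with the star arms included. This gave 5 of 528 names, the 2 guide arms miR-26a and miR-26b and the 3 star arms miR-26a-1*, miR-26a-2* and miR-26b*, in all 19 libraries. Purkinje, PV, SST, Gad2 and Camk2a stand for neurons whose Myc-tagged Ago2 was precipitated with anti-Myc, and Cerebellum and Neocortex for whole tissue precipitated with anti-Ago2. All mice were at postnatal day 56. Purkinje libraries (n = 3, cerebellum, 3 pooled tissues each) and Cerebellum libraries (n = 3, 1 tissue each) came from a C57BL/6 and black swiss background. PV (n = 2), SST (n = 2) and Gad2 (n = 3) libraries came from neocortex, with 4 pooled tissues each, on a C57BL/6 and 129 background. Camk2a and Neocortex libraries (n = 3 and 3, 1 tissue each) shared a C57BL/6 and BALB/c background. The alleles that direct tagged Ago2 to each cell class, and whether replicates were separate animals, are not stated in the labels, so p-values measure only the spread between these libraries, which may be technical.

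MicroRNAs are short RNAs that guide Argonaute proteins such as Ago2 to target messages, mainly through the seed near their 5′ end. One strand of a hairpin, the guide, is usually retained in Argonaute, and the opposite strand, written with a star, is mostly discarded. The miR-26 hairpins lie in introns of the Ctdsp genes, which encode small phosphatases of the RNA polymerase II tail that assist the repressor REST in silencing neuronal genes. In zebrafish, miR-26b represses ctdsp2 during neurogenesis, and Ezh2 and Gsk3b are among the known targets of the family in mammals.

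The mature sequences show what the guides share and where they part. They are given from RefSeq (GRCm38.p6), 5′ to 3′, with the seed (bases 2 to 8) in capitals.
miR-26a: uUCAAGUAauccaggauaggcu
miR-26b: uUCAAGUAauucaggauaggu
miR-26a-1*: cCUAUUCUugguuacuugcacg
miR-26a-2*: cCUGUUCUugauuacuuguuuc
miR-26b*: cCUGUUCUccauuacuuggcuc
The guides have the same seed, which no other of the 1679 mature mouse names in that table carries. Counted from the 5′ end over 21 aligned bases, miR-26b differs from miR-26a by C11U and C21U, and miR-26a is 22 bases long against 21 for miR-26b. The seeds of miR-26a-2* and miR-26b* are identical to each other, and miR-26a-1* differs from miR-26a-2* within the seed by A4G.

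The hairpins show which arms can be traced to a locus. Capitals mark the guide arm and, after the loop, the star arm.
Mir26a-1: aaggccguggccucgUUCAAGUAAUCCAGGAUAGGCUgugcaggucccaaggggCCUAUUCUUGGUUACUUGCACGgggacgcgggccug
Mir26a-2: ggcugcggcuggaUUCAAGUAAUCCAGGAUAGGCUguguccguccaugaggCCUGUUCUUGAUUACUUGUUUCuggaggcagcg
Mir26b: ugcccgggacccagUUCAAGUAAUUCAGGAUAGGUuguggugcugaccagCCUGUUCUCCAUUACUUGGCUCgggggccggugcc
Mir26a-1 and Mir26a-2 give the same guide, so reads of miR-26a cannot be assigned to either hairpin, whereas each star arm belongs to 1 hairpin. Mir26a-1 lies on chromosome 9 (chr9:119031796-119031885, plus strand) in intron 5 of 7 or 4 of 6 of Ctdspl, depending on the transcript (GENCODE M21). Mir26a-2 lies on chromosome 10 (chr10:126995530-126995613, plus strand) in intron 5 of 7 of Ctdsp2. Mir26b lies on chromosome 1 (chr1:74394310-74394394, plus strand) in intron 4 of 6 of Ctdsp1. These positions are on GRCm38, whereas reads were mapped to mm9, and the sources used here do not say how reads that fit both guides were assigned.

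Levels here are RPM, reads per 1000000 miRNA reads, so each is a share of the Ago2-bound pool, in which fewer cells of a type and less RNA per cell cannot be told apart. Libraries held 1229834 to 14249087 miRNA reads, and each of the 19 was closest in log2 level to a library of its own group. Marker miRNAs of neurons (13 names of miR-124, miR-128, miR-137, miR-138 and miR-218) summed to between 171000 and 390200 RPM in every library. They summed to 331600 to 346200 RPM in Purkinje and 265600 to 306900 RPM in Cerebellum. PV had 339000 to 379100 RPM, SST 171000 to 175500 RPM and Gad2 270900 to 300700 RPM. Camk2a had 369700 to 390200 RPM and Neocortex 227300 to 321400 RPM, so both SST libraries lay below every Neocortex library and Gad2 within the Neocortex range. These markers do not tell the 5 cell classes from each other. Markers of vascular cells (3 names of miR-126 and miR-143) summed to 323 to 424 RPM in Purkinje and 5810.0 to 6312 RPM in Cerebellum, and to 294.6 to 993 RPM in the neocortical classes and 7841 to 8178 RPM in Neocortex. Both the cell class and the antibody differ between these groups.

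miR-26a was among the 10 most abundant miRNAs of every library. It had 20404, 20651 and 17565.5 RPM in Purkinje and 54572, 54965 and 60243 RPM in Cerebellum. In PV it had 14416 and 18448 RPM, and in SST 39319.8 and 33674 RPM. The PV and Purkinje libraries were the lowest for this guide and the Cerebellum libraries the highest, with all 3 above every library of the other groups. Gad2 libraries held 30563, 26482.5 and 24909 RPM, Camk2a libraries 38757, 25978 and 35777 RPM, and Neocortex libraries 39740.3, 23195.5 and 39477 RPM. In Camk2a and in Neocortex the library numbered 2 lay well under the other two. Ranked by group mean, Cerebellum (56593 ± 3167 RPM, SD, n = 3) came before SST (36497 ± 3992, n = 2), Neocortex (34138 ± 9477, n = 3), Camk2a (33504 ± 6686, n = 3), Gad2 (27318 ± 2918, n = 3), Purkinje (19540.3 ± 1715, n = 3) and PV (16432 ± 2851, n = 2). SST, Neocortex, Camk2a and Gad2 overlapped with their neighbours in that order, as did Purkinje with PV. Cerebellum did not overlap with SST, nor did Gad2 with Purkinje. The highest group mean was 3.44 times the lowest.

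miR-26b was rarer and more uneven, with group means that spanned 8.03-fold. It had 659, 618 and 533 RPM in Purkinje against 4724, 4312 and 5220.1 RPM in Cerebellum. PV libraries held 837 and 760.4 RPM, and SST libraries 1282 and 1098 RPM. Cerebellum again stood above all other libraries. Gad2 had 926, 802 and 778 RPM, Camk2a 723, 423 and 629 RPM, and Neocortex 2323, 1019.7 and 1971 RPM. Neocortex replicate 2 was again the lowest of its group and lay below both SST libraries, yet above every library of Gad2, PV, Camk2a and Purkinje. By group mean, Cerebellum (4752 ± 455 RPM) led Neocortex (1771 ± 674), SST (1190.3 ± 130.3), Gad2 (835 ± 79.3), PV (799 ± 54.1), Purkinje (603 ± 64.3) and Camk2a (592 ± 154), with the same n as for miR-26a. Neighbours overlapped between Neocortex and SST, Gad2 and PV, and Purkinje and Camk2a. The pool held this guide at ranks 28 to 31 in Cerebellum and 66 to 102 in the 5 cell classes.

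**Figure D1:**
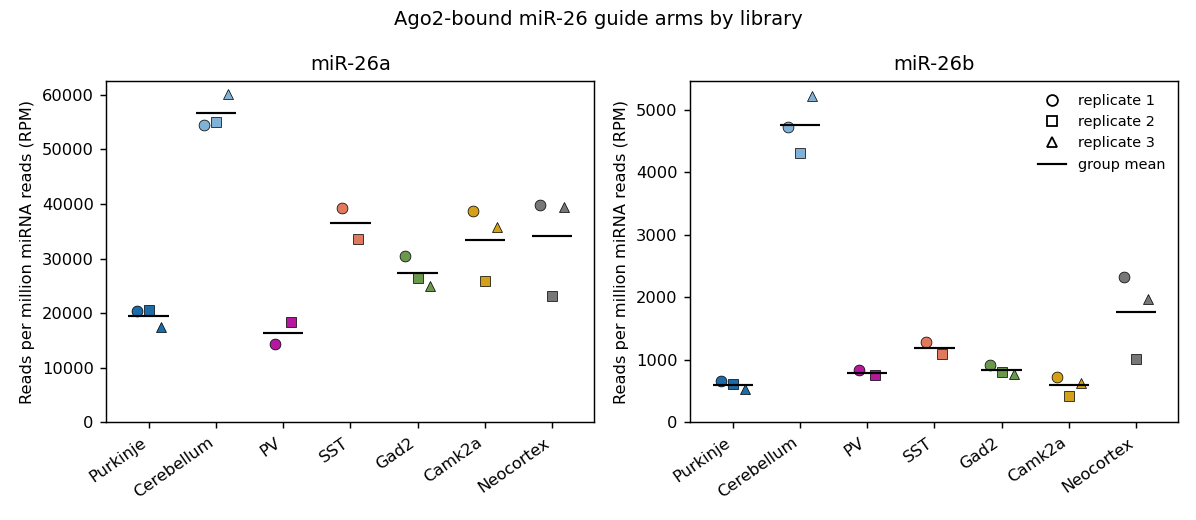
Level of miR-26a (left) and miR-26b (right) in RPM, on linear axes that start at 0 and differ in scale, for 7 groups, where each point is 1 library, its shape gives the replicate number and bars are group means. The 3 Cerebellum libraries lie above every other library for both guides, whereas the low end is held by PV and Purkinje for miR-26a and by Camk2a and Purkinje for miR-26b.

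The ratio of the guides varied between groups. miR-26b made up 3.13%, 2.91% and 2.94% of guide reads in Purkinje and 7.97%, 7.27% and 7.97% in Cerebellum. In PV the share was 5.49% and 3.96%, and in SST 3.16% in both libraries. Gad2 libraries stood at 2.94%, 2.94% and 3.03%, Camk2a libraries at 1.83%, 1.60% and 1.73%, and Neocortex libraries at 5.52%, 4.21% and 4.75%. Camk2a had the lowest share of all groups and Cerebellum the highest, with no overlap with any other group. The library number 2 of Camk2a and of Neocortex, low for both guides, lay closer to its group in this share than in level. Put as reads, there were 57.3 ± 3.96 reads of miR-26a per read of miR-26b in Camk2a and 19.96 ± 2.82 in Neocortex, and 32.5 ± 1.30 in Purkinje and 11.9 ± 0.694 in Cerebellum (SD, n = 3 each). Over the 7 group means of log2 level the guides had a Pearson correlation of 0.768, and over the 19 libraries 0.792, given as a description of points that share library depth and pool composition.

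**Figure D2:**
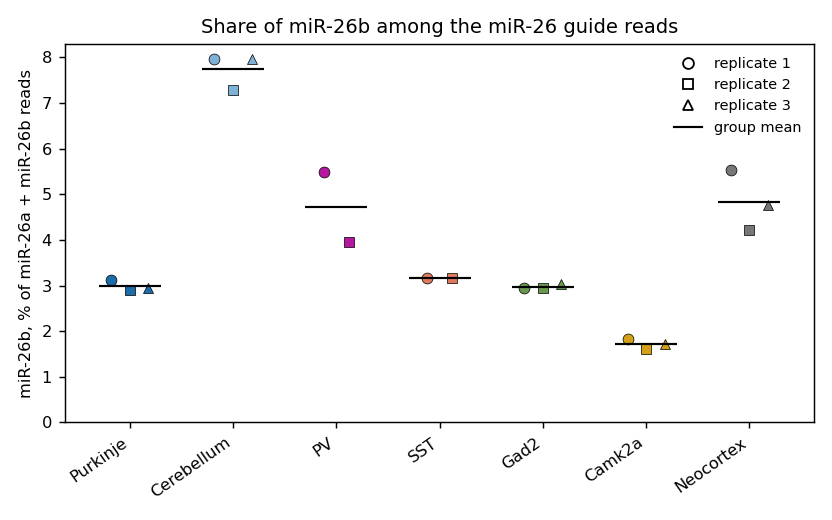
Share of miR-26b among the reads of both guides in percent (vertical axis, from 0) by group, with 1 point per library shaped by replicate number and bars for group means. Cerebellum libraries reach 7.27% to 7.97% and Camk2a libraries 1.60% to 1.83%, and the share is close to 3% in Purkinje, SST and Gad2.

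Differences were tested with limma on log2(deposited value + 1) over 522 miRNAs, with Benjamini-Hochberg adjustment and a threshold of 0.05 on the adjusted p, and the ratio of the guides with limma over 116 pairs of names that differ in 1 letter. All 5 members differed between some of the 7 groups, as did 87.2% of the miRNAs tested. The adjusted p was 2.24e-06 for miR-26a and 2.14e-09 for miR-26b, which placed them at ranks 274 and 123 of 522 by the F statistic.

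Whole cerebellum was set against whole neocortex under the same antibody. Both guides were higher in Cerebellum, miR-26a by 1.71-fold (log2 0.77, 95% interval 0.36 to 1.18, adjusted p = 0.00232) and miR-26b by 2.83-fold (log2 1.503, 1.01 to 1.996, adjusted p = 1.75e-05). No Cerebellum library overlapped with a Neocortex library for either guide. Of all miRNAs tested 55.6% passed, with a median log2 change of -0.40 over those tested. The miR-26b to miR-26a ratio rose 1.66-fold (log2 0.73, 0.48 to 0.99, adjusted p = 0.000342), in a comparison where 35.3% of the 116 pairs passed and the median absolute log2 change of a pair was 0.43. The 41 pairs called became 26 without Cerebellum replicate 1 and also without Cerebellum replicate 2. Of the choroid plexus and ependyma markers (miR-204, miR-34b and miR-34c) 5 of 6 names were higher in Cerebellum, with a summed level of 1457 to 1926 RPM against 97.4 to 124.8 RPM in Neocortex. Other markers moved as well. Among the 13 neuron names 1 was higher and 10 lower, and among the 3 vascular names 1 was lower. Of the oligodendrocyte names (miR-219 and miR-338) 2 of 5 were higher and 1 lower. The blood names (miR-451, miR-144, miR-486, miR-150, miR-142 and miR-223) had 3 of 11 higher. Their part in the result was not tested, and region and strain background cannot be told apart here.

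The largest changes of both guides among the 9 comparisons separated Purkinje cells from whole cerebellum. miR-26a was 2.90-fold lower in Purkinje (log2 -1.54, 95% interval -1.94 to -1.13, adjusted p = 6.74e-07) and miR-26b 7.88-fold lower (log2 -2.98, -3.47 to -2.49, adjusted p = 6.78e-10). All Purkinje libraries lay below all Cerebellum libraries for both. With the sparse star arms counted, 5 of 5 members passed limma as lower, at a median log2 change of -2.01, but miR-26a-1* and miR-26b* did not pass edgeR (adjusted p = 0.0979 and 0.053) or DESeq2 (0.182 and 0.0634). In this comparison 68.6% of all miRNAs passed the test, around a median log2 change of -0.19. miR-26b fell more than its paralog, with a ratio 2.72-fold lower (log2 -1.44, -1.70 to -1.19, adjusted p = 1.24e-07), where 61.2% of pairs passed and the median absolute change was 0.99. All 6 choroid plexus and ependyma names and all 3 vascular names also fell, as did 7 of 11 blood names, while 1 blood name rose. The choroid plexus and ependyma names summed to 10.95 to 18.9 RPM in Purkinje against 1457 to 1926 RPM in Cerebellum, with miR-34b-3p and miR-34c* at 0 in Purkinje. The blood names (miR-451, miR-144, miR-486, miR-150, miR-142 and miR-223) summed to 1282 to 1591 RPM in Purkinje and 2834 to 3304 RPM in Cerebellum, with miR-144* and miR-223* at 0 in Purkinje. Of the oligodendrocyte markers (miR-219 and miR-338) 1 of 5 names fell, with a summed level of 2743 to 3249 RPM in Purkinje and 3364 to 3565 RPM in Cerebellum. Among the 13 neuron names 6 fell and 3 rose. The part of these cells in the result was not tested, and cell class, antibody and pooling cannot be told apart.

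In the neocortex the Camk2a cells, a class named for a gene of excitatory neurons, had less miR-26b than whole tissue, with no call for miR-26a. miR-26a differed by a log2 change of -0.005 between Camk2a and Neocortex (95% interval -0.41 to 0.40, adjusted p = 0.992). That value turned to 0.30 with TMM-divided values (adjusted p = 0.285), a scaling that moved the median of all miRNAs from -0.25 to 0.03, so the change relative to the median was positive under both. miR-26b was 2.90-fold lower in Camk2a (log2 -1.53, -2.03 to -1.04, adjusted p = 2.99e-05), with no overlap between the groups, where 44.8% of miRNAs passed. The ratio fell 2.89-fold (log2 -1.53, -1.78 to -1.28, adjusted p = 1.12e-06). Of all pairs 23.3% passed, the median absolute change was 0.22, and this pair ranked 5 of 116 by size. Leaving out the low libraries numbered 2 of both groups gave a ratio change of -1.58 and a miR-26b change of -1.67. Markers of other cells fell in this comparison too, 3 of 3 vascular, 8 of 11 blood and 4 of 5 oligodendrocyte names, while 1 blood name rose. Among the 13 neuron names 4 rose and 2 fell, and among the 6 choroid plexus and ependyma names 3 fell. The vascular names summed to 934 to 993 RPM in Camk2a and 7841 to 8178 RPM in Neocortex. The 11 blood names summed to 45.6 to 55.0 RPM in Camk2a and 1814 to 4059 RPM in Neocortex, with miR-144*, miR-150* and miR-223* at 0 in Camk2a, and the oligodendrocyte names to 667 to 799 RPM in Camk2a and 2155 to 3401 RPM in Neocortex. Their part in the result was not tested. These groups share age, strain background and pooling and differ in the antibody, so antibody and cell class cannot be told apart.

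Gad2 cells, named for an enzyme of GABA synthesis, also had less miR-26b than whole tissue, again with no call for miR-26a. miR-26b was 2.01-fold lower in Gad2 than in Neocortex (log2 -1.005, 95% interval -1.498 to -0.51, adjusted p = 0.00163), where 45.0% of miRNAs passed. The change of miR-26a was -0.28 (-0.69 to 0.12, adjusted p = 0.251). Without Neocortex replicate 2 it was -0.54 with an adjusted p of 0.0177. The ratio was 1.65-fold lower in Gad2 (log2 -0.72, -0.97 to -0.47, adjusted p = 0.000339), beside 28.4% of pairs.

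PV and SST cells are classes of GABAergic interneurons that contain parvalbumin or somatostatin, with 2 libraries each. In PV both guides fell against Neocortex, miR-26a by 2.03-fold (log2 -1.02, -1.48 to -0.57, adjusted p = 0.000536) and miR-26b by 2.095-fold (log2 -1.07, -1.62 to -0.52, adjusted p = 0.00186), with 48.7% of miRNAs called. The call of miR-26b was lost when PV and Neocortex were fitted alone (adjusted p = 0.065). The ratio changed by -0.04 (-0.33 to 0.24, adjusted p = 0.887), beside 42.2% of pairs called. In SST neither guide passed the test, where 52.5% of miRNAs did. miR-26a changed by 0.13 (-0.32 to 0.59, adjusted p = 0.650) and by -0.17 with TMM-divided values, and miR-26b changed by -0.49 (-1.05 to 0.06, adjusted p = 0.124). miR-26b passed without Neocortex replicate 2 (-0.85, adjusted p = 0.00267) and with TMM-divided values (-0.79, adjusted p = 0.0281). The ratio was 1.55-fold lower in SST than in Neocortex (log2 -0.63, -0.91 to -0.35, adjusted p = 0.00185), again beside 42.2% of pairs. All 3 vascular names and 4 of 5 oligodendrocyte names were lower in Gad2, in PV and in SST than in Neocortex, as were 7, 7 and 8 of 11 blood names, while 1 blood name was higher in each. The blood names summed to 247 to 262 RPM in PV, 300.3 to 360.5 RPM in SST and 76.3 to 177 RPM in Gad2, against 1814 to 4059 RPM in Neocortex. Oligodendrocyte names summed to 907 to 1114 RPM in PV, 1011 to 1219 RPM in SST and 681 to 734 RPM in Gad2, against 2155 to 3401 RPM in Neocortex. The 6 choroid plexus and ependyma names were mixed, with 2 higher and 2 lower in Gad2 and in PV, and 3 higher and 1 lower in SST. Their sum was 425 to 430 RPM in SST against 97.4 to 124.8 RPM in Neocortex. Among the 13 neuron names 7, 6 and 6 were lower in Gad2, PV and SST, and 1, 3 and 1 higher. The part of these cells was not tested. In these 3 comparisons cell class, antibody, pooling and strain background cannot be told apart.

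Between cell classes the antibody was the same. PV had 2.23-fold less miR-26a than SST (log2 -1.16, 95% interval -1.66 to -0.66, adjusted p = 0.000847), where 29.1% of miRNAs passed and the median log2 change was -0.42. With TMM-divided values the change was -0.69 (adjusted p = 0.0844) around a median of -0.004, so this call depended on the scaling. miR-26b changed by -0.57 between PV and SST (-1.18 to 0.03, adjusted p = 0.154). With TMM-divided values its change was -0.10, with edgeR -0.10 and with DESeq2 -0.04. The ratio was 1.499-fold higher in PV (log2 0.58, 0.27 to 0.89, adjusted p = 0.0176), with 18.1% of pairs called. This call was lost without PV replicate 1 (0.34, adjusted p = 0.163) or without SST replicate 1 (0.58, adjusted p = 0.0516). Without PV replicate 1 the count of miRNAs called was 94 in place of 152 and that of pairs 6 in place of 21. Of the choroid plexus and ependyma names 3 of 6 were lower in PV, with a summed level of 118 to 137 RPM in PV and 425 to 430 RPM in SST. Of the vascular names 2 of 3 were lower and 1 higher, with 294.6 to 330 RPM in PV and 734 to 766 RPM in SST. Neuron names summed to 339000 to 379100 RPM in PV and 171000 to 175500 RPM in SST, with 3 of 13 higher in PV and 3 lower. Their part was not tested. PV libraries held 10739153 and 11438142 reads against 1278770 and 2457681 in SST.

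Gad2 and Camk2a differed in the balance of the guides. The ratio was 1.75-fold higher in Gad2 (log2 0.81, 0.55 to 1.06, adjusted p = 0.000156), beside 24.1% of pairs, and all Gad2 libraries lay above all Camk2a libraries in the share of miR-26b. The levels themselves did not pass, with -0.28 for miR-26a (-0.69 to 0.13, adjusted p = 0.297) and 0.53 for miR-26b (0.04 to 1.02, adjusted p = 0.0864), where 38.1% of miRNAs did. Among the 13 neuron names 8 were lower in Gad2 and 0 higher, with 270900 to 300700 RPM in Gad2 and 369700 to 390200 RPM in Camk2a. Lower too were 2 of 3 vascular names, with 295 to 354 RPM in Gad2 and 934 to 993 RPM in Camk2a. Higher in Gad2 were 2 of 5 oligodendrocyte, 2 of 11 blood and 3 of 6 choroid plexus and ependyma names, with 1 of the last lower. The part of these markers was not tested. Pooling and strain background differ between Gad2 and Camk2a and cannot be told apart from the class. Purkinje cells, which are GABAergic too, had 1.40-fold less miR-26a than Gad2 cells (log2 -0.48, -0.89 to -0.07, adjusted p = 0.0434), beside 55.0% of miRNAs. That call was lost with TMM-divided values (-0.30, adjusted p = 0.269). It was also lost without Purkinje replicate 1 (adjusted p = 0.0665), 2 (0.0592) or 3 (0.129), and without Gad2 replicate 1 (0.153) or 2 (0.0679). miR-26b changed by -0.47 (-0.96 to 0.02, adjusted p = 0.096). The ratio changed by 0.01 between Purkinje and Gad2 (-0.24 to 0.26, adjusted p = 1), where 53.4% of pairs passed. All 6 choroid plexus and ependyma names were lower in Purkinje, with a summed level of 10.95 to 18.9 RPM in Purkinje and 98.99 to 123 RPM in Gad2. Higher in Purkinje were 4 of 11 blood names, with 1282 to 1591 RPM in Purkinje and 76.3 to 177 RPM in Gad2. So were 2 of 5 oligodendrocyte names, with 2743 to 3249 RPM in Purkinje and 681 to 734 RPM in Gad2. Among the 13 neuron names 3 were higher and 6 lower, and among the 3 vascular names 1 was higher and 1 lower. Their part was not tested. Tissue, strain background and pooling differ between Purkinje and Gad2 and cannot be told apart.

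**Figure D3:**
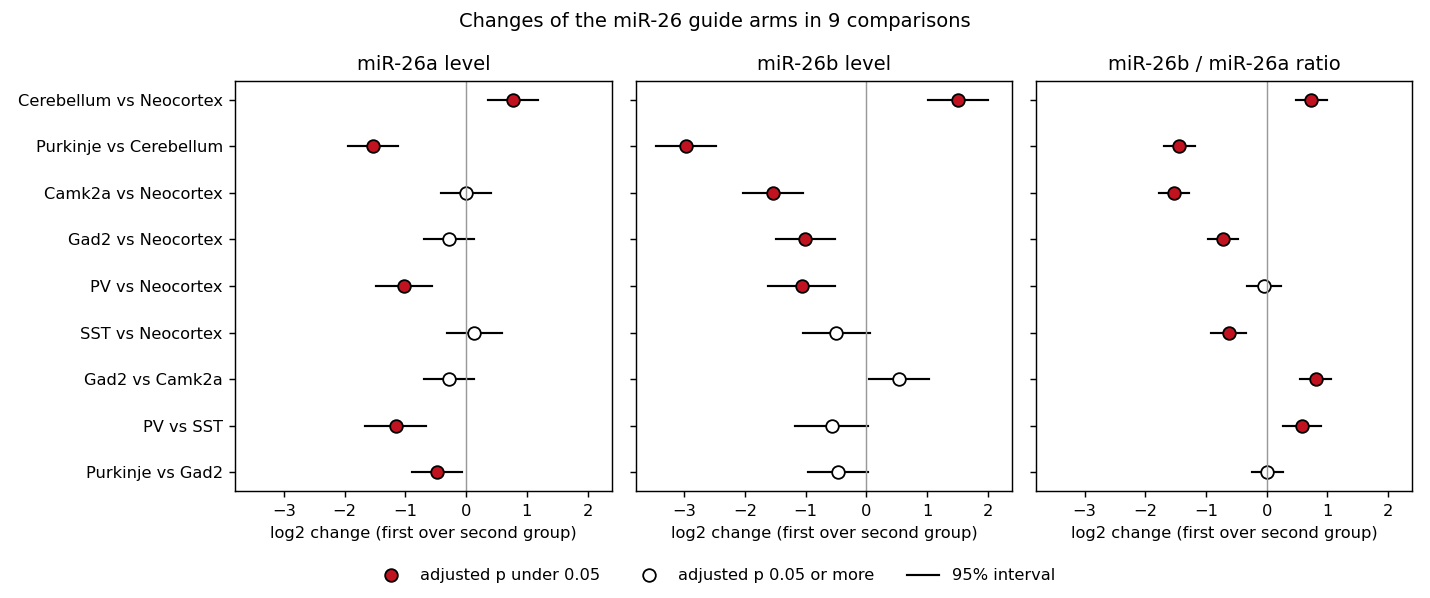
Log2 change of miR-26a, of miR-26b and of the miR-26b to miR-26a ratio (horizontal axes) in 9 comparisons, the first group over the second, with 95% intervals from limma and filled points where the adjusted p is under 0.05. The ratio falls by 1.44 in Purkinje vs Cerebellum and by 1.53 in Camk2a vs Neocortex, in the second of which miR-26a changes by -0.005.

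The step from tissue to cell class was then compared between the regions. The change of miR-26a from Cerebellum to Purkinje was lower than that from Neocortex to Gad2 by 1.25 on the log2 scale (log2 -1.25, 95% interval -1.83 to -0.67, adjusted p = 0.000793), and for miR-26b the difference was -1.97 (-2.67 to -1.28, adjusted p = 4.73e-05), where 45.8% of miRNAs passed. Against the step from Neocortex to Camk2a the differences were -1.53 for miR-26a (-2.11 to -0.95, adjusted p = 0.0001) and -1.45 for miR-26b (-2.14 to -0.75, adjusted p = 0.00116), where 47.3% passed. All 6 choroid plexus and ependyma names also passed as lower in both differences (median log2 -5.95 with Gad2 and -3.88 with Camk2a), and 4 of 5 oligodendrocyte names as higher (medians 1.74 and 1.75), beside medians over all miRNAs of 0.12 and 0.28. Of the blood names 1 of 11 with Gad2 and 5 of 11 with Camk2a passed as higher, and of the vascular names 0 of 3 and 2 of 3 as lower. Among the 13 neuron names 3 were higher and 3 lower with Gad2 (median 0.33), and 3 higher and 4 lower with Camk2a (median -1.38). The part of these cells was not tested. Both differences share the Purkinje, Cerebellum and Neocortex libraries. Strain background differs between Gad2 and Neocortex but not between Purkinje and Cerebellum or between Camk2a and Neocortex. In the difference with Gad2, strain background therefore cannot be told apart from the class. Pooling differs between Purkinje and Cerebellum but not between Camk2a and Neocortex, so in the difference with Camk2a pooling cannot be told apart from the class.

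The star arms made up very few of the Ago2-bound reads of the family. Over all libraries 441 of 3662977 family reads came from star arms, with 51 of miR-26a-1*, 270 of miR-26a-2* and 120 of miR-26b*. Under a floor of 3 reads lay miR-26a-1* in 13 libraries, miR-26a-2* in 4 and miR-26b* in 6 of 19. The Mir26a-2 hairpin gave 84.1% of the 321 star reads of miR-26a (exact 95% binomial interval 79.7% to 87.9%), and in 17 of 19 libraries its star outnumbered that of Mir26a-1. Relative to their guides there were 918 reads of miR-26b* per 1000000 reads of miR-26b and 90.9 reads of miR-26a star arms per 1000000 reads of miR-26a. By group the pooled rate of miR-26b* was 425 in Purkinje and 340.2 in Cerebellum, 792 in PV, 230.5 in SST, 895 in Gad2, 1690.1 in Camk2a and 1248 in Neocortex, and Purkinje replicates 1 and 3 and SST replicate 2 had no read of it. The pooled rate of the miR-26a star arms was 78.4 in Purkinje and 106.6 in Cerebellum, 84.7 in PV, 37.6 in SST, 54.6 in Gad2, 104.4 in Camk2a and 123.6 in Neocortex. Taken as the quotient of these rates, the gap was narrowest in Cerebellum and widest in Gad2 and Camk2a, and it was not tested. The rate of miR-26b* rests on 1 read in SST and 2 reads in Purkinje. All intervals and floors here cover counting error only, because amplified reads that carry no molecular identifiers do not count molecules.

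The star of Mir26a-2 was detected in every library. It had 2, 6 and 4 reads in Purkinje and 10, 12 and 13 reads in Cerebellum, or 1.52 ± 0.773 against 6.34 ± 2.37 RPM (SD, n = 3 each), and was lower in Purkinje by 4.04-fold (log2 -2.01, 95% interval -3.47 to -0.56, adjusted p = 0.0151). With Purkinje replicate 1 left out it missed the threshold (adjusted p = 0.0537), as it did with Cerebellum replicate 1 left out (0.0533). PV had 19 and 10 reads, SST 1 and 2, Gad2 11, 6 and 20, Camk2a 40, 43 and 16, and Neocortex 1, 21 and 33. No other comparison called this arm. Its difference of changes between Purkinje vs Cerebellum and Camk2a vs Neocortex was -2.43 (adjusted p = 0.049), a call lost with edgeR (0.0608), without the filter (0.0521), with only the groups compared (0.0624), with the replicate number as a block (0.0581) and on leaving out any 1 of 7 of the 12 libraries (0.0819 to 0.17).

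The star of Mir26b had 0, 2 and 0 reads in Purkinje and 2, 5 and 3 in Cerebellum, a ratio of pooled rates of 0.159 (exact 95% counting interval 0.017 to 0.747). It passed limma as lower in Purkinje (adjusted p = 0.00196) but not edgeR (adjusted p = 0.053) or DESeq2 (0.0634). In SST it had 1 and 0 reads against 9, 10 and 19 in Neocortex, a ratio of 0.12 (0.00296 to 0.711, limma adjusted p = 0.00432). That call was lost with only the groups compared (limma adjusted p = 0.0615). It was also lost without SST replicate 2, the library with 0 reads, where the log2 change was -1.63 in place of -3.20. For Purkinje against Gad2, with 10, 9 and 3 reads in Gad2, the ratio was 0.328 with a counting interval of 0.0374 to 1.33, although limma gave an adjusted p of 0.0395. This call was lost with 1 library left out in 4 of 6 cases, Purkinje replicate 1 (adjusted p = 0.166), Purkinje replicate 3 (0.157), Gad2 replicate 1 (0.0764) and Gad2 replicate 2 (0.134). The call was also lost with edgeR (adjusted p = 0.229), DESeq2 (0.348), a limma pseudocount of 10 (0.116) and only the groups compared (0.1445). PV had 6 and 8 reads and Camk2a 8, 14 and 11.

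The star of Mir26a-1 had no read in 3 Purkinje libraries, which allows up to 0.888 to 1.45 RPM per library, and 1, 2 and 0 reads in Cerebellum. Gad2 had 3, 1 and 3 reads, and since these groups lie at or under the floor no fold is given, although limma passed this arm in Purkinje vs Cerebellum (adjusted p = 0.0204) and Purkinje vs Gad2 (adjusted p = 0.0486). The counting interval of the ratio of pooled rates was 0 to 1.93 against Cerebellum and 0 to 2.50 against Gad2. The Purkinje vs Cerebellum call was lost without Cerebellum replicate 1 (adjusted p = 0.119) or 2 (0.0908) and with only the groups compared (0.104). The Purkinje vs Gad2 call was lost when any library of these groups was left out (adjusted p = 0.0517 to 0.162). Both calls were also lost with edgeR (adjusted p = 0.0979 and 0.167), DESeq2 (0.182 and 0.4275) and a limma pseudocount of 10 (0.0528 and 0.242). PV had 0 and 2 reads against 2, 2 and 16 in Neocortex (ratio 0.0769, counting interval 0.00871 to 0.316, limma adjusted p = 0.0126). That call was lost with DESeq2 (adjusted p = 0.05835) and in limma without Neocortex replicate 3 (adjusted p = 0.0511). It was also lost without PV replicate 1, where the log2 change was -1.84 in place of -2.57. SST had 1 and 1 reads and Camk2a 3, 9 and 5.

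**Figure D4:**
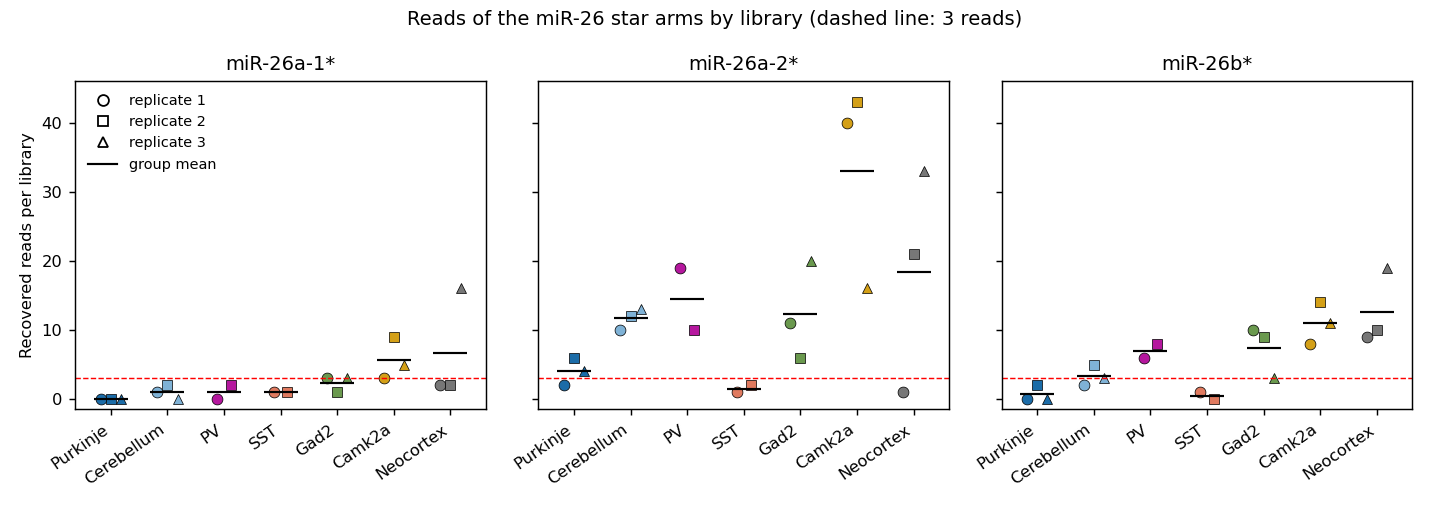
Recovered reads of the 3 star arms per library (vertical axis, linear, not adjusted for depth) by group, with 1 point per library shaped by replicate number, bars for group means and a dashed line at 3 reads. Most points of miR-26a-1* lie at or under the line, and the highest, 43 reads, belongs to miR-26a-2* in a Camk2a library.

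Ratios of star to guide were tested for miR-26a-2* and miR-26b* among 183 arm pairs. The miR-26b* to miR-26b ratio was lower in Cerebellum than in Neocortex (log2 -2.05, 95% interval -3.44 to -0.65, adjusted p = 0.0228), with 344, 352 and 320 star reads per 1000000 guide reads in Cerebellum and 1803, 2393 and 893 in Neocortex, beside 39.3% of pairs. It was lost without Cerebellum replicate 2 (adjusted p = 0.0558) or 3 (0.0504) and without Neocortex replicate 1 (0.0616) or 2 (0.085). It was also lower in SST than in Neocortex (log2 -1.99, -3.55 to -0.43, adjusted p = 0.0391, beside 41.5% of pairs), a change of -0.66 (adjusted p = 0.335) with a pseudocount of 2 reads. The SST call was lost without SST replicate 2 (adjusted p = 0.468) and without Neocortex replicate 1 (0.083) or 2 (0.12). Among the other 16 tests of these pairs none passed limma, the lowest unadjusted p being 0.163. The percentages of pairs called there were 34.4% for Purkinje vs Cerebellum, 32.8% for Camk2a vs Neocortex, 20.2% for Gad2 vs Neocortex, 33.9% for PV vs Neocortex, 1.64% for Gad2 vs Camk2a, 3.28% for PV vs SST and 24.6% for Purkinje vs Gad2. Several of these counts of pairs moved with 1 library. They became 37 in place of 60 without Camk2a replicate 1 in Camk2a vs Neocortex, and 19 without Gad2 replicate 1 and 21 without Neocortex replicate 2, in place of 37, in Gad2 vs Neocortex. In SST vs Neocortex 48 in place of 76 were called without SST replicate 1, in Gad2 vs Camk2a 5 in place of 3 were called without Gad2 replicate 1, and in PV vs SST 2 without PV replicate 2 and 3 without SST replicate 2, in place of 6.

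The other miRNAs of the REST and CTDSP circuit were the 8 arms of miR-124, miR-9, miR-132 and miR-212. miR-124 is known to repress Ctdsp1, miR-9 to repress Rest, and the hairpins of miR-132 and miR-212 are targets of REST. In Cerebellum 2 of 8 arms were higher than in Neocortex and 4 lower (median log2 change -1.35), beside 55.6% of all miRNAs called. In Purkinje against Cerebellum 1 rose and 5 fell (median -0.68), beside 68.6%. miR-124 had 292539 ± 8397 RPM in Purkinje and 262748 ± 20436 RPM in Cerebellum (SD, n = 3 each), a log2 change of 0.16 (adjusted p = 0.389), where both miR-26 guides fell. In Camk2a against Neocortex 2 rose and 2 fell (median 0.19), beside 44.8%. miR-132 rose to 715 ± 117 RPM in Camk2a against 382 ± 19.3 RPM in Neocortex (1.85-fold, adjusted p = 0.0023), in the comparison in which miR-26b fell. In Gad2 against Neocortex 1 rose and 4 fell (median -0.62), beside 45.0%. In PV against Neocortex the counts were 1 and 5 (-1.37), beside 48.7%, and in SST 2 and 3 (-0.105), beside 52.5%. For Gad2 against Camk2a 2 rose and 4 fell (-0.67), beside 38.1%, for PV against SST 1 and 4 (-0.95), beside 29.1%, and for Purkinje against Gad2 1 and 5 (-1.25), beside 55.0%. miR-9 had 95354 ± 7801 RPM in Purkinje and 67249 ± 8558 RPM in Gad2 and was higher in Purkinje (1.42-fold, adjusted p = 0.00408). It was the 1 arm that rose in this comparison, and miR-9* was among the 5 that fell (log2 -0.61, adjusted p = 0.00041).

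Among the 169 other miRNAs whose group means averaged 100 RPM or more, the pattern over the 7 group means most like that of miR-26a was that of miR-204 (Pearson r = 0.968 in log2 level), a miRNA of choroid plexus and of an intron of Trpm3. It had 8.27 RPM in Purkinje, 1472 in Cerebellum, 7.55 in PV, 128 in SST, 19.96 in Gad2, 67.3 in Camk2a and 58.4 in Neocortex. miR-135b (0.866), miR-126-3p (0.834), a miRNA of endothelium, miR-497 (0.832) and miR-99a (0.825) followed. For miR-26b the closest were miR-451 (0.850), a miRNA of red blood cells, miR-497 (0.849), miR-204 (0.844), miR-125a-5p (0.817) and let-7g (0.816). miR-451 had 40.2 RPM in Purkinje and 2108 in Cerebellum, and 10.02 in Camk2a and 2431 in Neocortex. These correlations are over 7 points that share the libraries' depth and composition and are given as a description.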

How the data were processed

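Ago2-bound small RNA was sequenced in 19 libraries of 7 groups on an Illumina Genome Analyzer II, per the labels' protocols. Mapping used Bowtie (version not given in the sources used here) and mm9, per the submitters' processing notes. The deposited signal is each library's reads per miRNA scaled by the authors to a common total. Per the file headers that total is 1000000, but the columns sum to 10000000, and RPM here is the value divided by 10. In all 19 libraries the values of the 311 to 382 detected names with lower counts were whole multiples of 1 read (tolerance 0.1), which gave the reads. Larger values, those of both guides among them, were divided by the same step and rounded, without this check.

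Groups came from the titles. limma 3.58.1 (R 4.3.3, with trend) was fitted to log2(value + 1) over 7 group means for the 522 miRNAs that reached a value of 1 in 2 or more libraries. The Benjamini-Hochberg adjustment ran over these, separately for 9 comparisons and 2 differences of changes. Ratios used recovered reads plus 0.5, with a mean of at least 5 reads per name and, for arms, at least 20 summed reads in 2 libraries. edgeR 4.0.16 and DESeq2 1.42.0 on recovered reads, TMM-divided values, other pseudocounts, no filter, a replicate block, single comparisons and leaving out each library were alternatives. Fits were tested on simulated data. For 17 pairs of replicates the chi-square of their reads was 34.2 to 693 times its degrees of freedom, so no library was taken as a copy of another. Named miRNAs are all members, the 5 most alike to each guide, the guides of the REST and CTDSP list and miR-9*. Members and lists were chosen with earlier results of these data known. Sequences are RefSeq's, introns GENCODE M21's. miR-145 and miR-449a are not analysed here.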

Additional observations from a re-analysis of the deposited data

Results flagged for a closer look

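The step from tissue to cell class differed between the regions for both guides, by a limma test of the difference itself over all 19 libraries. For Purkinje vs Cerebellum minus Gad2 vs Neocortex the log2 difference was -1.253 for miR-26a (adjusted p = 0.000793) and -1.974 for miR-26b (adjusted p = 4.73e-05). For Purkinje vs Cerebellum minus Camk2a vs Neocortex it was -1.532 for miR-26a (adjusted p = 0.0001), -1.445 for miR-26b (adjusted p = 0.00116) and -2.43 for miR-26a-2* (adjusted p = 0.049). All 3 Purkinje libraries lay below all 3 Cerebellum libraries for these 3 arms. The value of miR-26a-2* rests on 12 reads in Purkinje, 35 in Cerebellum, 99 in Camk2a and 55 in Neocortex, and it missed the threshold with edgeR (adjusted p = 0.0608), without the filter (0.0521), with the replicate block (0.0581) and with only the groups compared (0.0624). It also missed it on leaving out Purkinje replicate 1 (adjusted p = 0.101) or 3 (0.0819), or Cerebellum replicate 1 (0.096) or 3 (0.0885), Camk2a replicate 1 (0.11) or 2 (0.111), and Neocortex replicate 1 (0.17). All 6 choroid plexus and ependyma names differed downward in both differences and 4 of 5 oligodendrocyte names upward, and their part was not tested. Pooling differs between Purkinje and Cerebellum and not between Camk2a and Neocortex, and its part was not tested. Strain background differs between Gad2 and Neocortex, whereas Purkinje and Cerebellum share theirs, so the difference with Gad2 also carries a difference of strain. The part of strain background was not tested.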

How the results depend on the processing

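Of 152 alternatives for the level of miR-26b 145 kept direction and call, of 152 for miR-26a 130, and of 69 for the ratio of the guides 64. Another scaling changed the sign of miR-26a in Camk2a vs Neocortex (0.30 with TMM-divided values, 0.27 with edgeR, 0.23 with DESeq2, and -0.26 to 0.17 leaving out 1 library) and in SST vs Neocortex (-0.17, -0.22, -0.26, and -0.12 to 0.27). It ended the call of miR-26a in PV vs SST (-0.69, -0.68, -0.62) and in Purkinje vs Gad2 (-0.30, -0.31, -0.23, and -0.55 to -0.40 leaving out 1 library), and made a call for miR-26b in SST vs Neocortex (-0.79, -0.89, -0.94, and -0.85 to -0.26). The cause was not tested. TMM-divided values moved the median of all miRNAs to -0.004 in place of -0.42 in PV vs SST, to 0.03 in place of -0.25 in Camk2a vs Neocortex, to -0.07 in place of 0.13 in SST vs Neocortex and to -0.18 in place of -0.31 in Purkinje vs Gad2. In Cerebellum vs Neocortex it stayed at -0.37 with these and -0.41 with edgeR, in place of -0.40, and was -0.05 with DESeq2. In Purkinje vs Cerebellum it was 0.0036 with edgeR and -0.175 with DESeq2, in place of -0.19. The share of higher calls moved from 13.8% to 41.7% in PV vs SST and from 37.6% to 55.7% in Camk2a vs Neocortex with TMM-divided values, from 56.3% to 44.5% in Gad2 vs Camk2a, and with DESeq2 from 35.2% to 46.8% in Cerebellum vs Neocortex and from 37.3% to 50.3% in Purkinje vs Gad2. With only the groups compared, fewer samples set the spread, and miR-26b missed the threshold in PV vs Neocortex (-1.07, adjusted p = 0.065) and passed it in Purkinje vs Gad2 (-0.47, adjusted p = 0.0228). Leaving out 1 library gave -0.54 to -0.15 for miR-26a in Gad2 vs Neocortex, 0.34 to 0.83 for the ratio in PV vs SST, -0.29 to 0.20 in PV vs Neocortex, -0.0221 to 0.0324 in Purkinje vs Gad2, and 94 to 130 miRNAs called in PV vs SST, the lowest without PV replicate 1, against 152 with all libraries. Of 138 alternatives for counts of ratios called 13 moved by over 1.5 times, 10 of them leaving out 1 library. With a ratio pseudocount of 2 reads the arm pairs called were 10 in place of 3 in Gad2 vs Camk2a and 76 in place of 45 in Purkinje vs Gad2, and without replicate 2 of Camk2a and Neocortex 39 in place of 60 in Camk2a vs Neocortex. A PV or SST library left alone was assumed to vary like the other groups. With the replicate number as a block (replicate block), miR-26b passed in Gad2 vs Camk2a (0.53, adjusted p = 0.0433) and no other call of a guide or of their ratio changed, while miR-26a-1* missed the threshold in Purkinje vs Gad2 (adjusted p = 0.0617), as did miR-26a-2* in its difference of changes (0.0581). In no comparison with 3 pairs did the deviations of all same-numbered libraries correlate above 0.1 (range -0.23 to 0.18), so the numbers were not taken as pairs. Of 108 alternatives for called star arm levels 44 lost the call, as did 8 of 15 for their arm ratios, at 0 to 43 reads a library. The alternative that left out replicate 2 of Camk2a and Neocortex together was chosen after seeing the data.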
